A study of Homo sapiens with 12 samples.

Results

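The genes described here are 33 members of the p53 pathway, taken from a named list of p53 regulators and p53 target genes, of 55765 genes counted by RNA-seq in T47D cells. All 33 were found in the count tables, TIGAR under its older symbol C12orf5, and 31 had enough counts to be tested among 17727 tested genes. CDKN1A, BAX, BBC3 and BTG2 are not members. T47D cells come from a luminal breast cancer and have the progesterone receptor. The 12 libraries fall into 4 groups of 3 biological replicates: siPRMT1 with R5020, siPRMT1 with ethanol, siCT with R5020 and siCT with ethanol. The siPRMT1 siRNA targets PRMT1, a protein arginine methyltransferase, and siCT is a nonspecific siRNA. R5020, a synthetic progestin, was given at 10 nM for 6 h, and ethanol is its vehicle, given for the same time. All groups are the same line grown in serum with insulin, without a DNA-damaging agent in the labels. The study asked whether genes that answer to progestin need PRMT1 to do so.

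The transcription factor p53 is kept low by the ubiquitin ligase MDM2, is released by DNA damage and other stress, and then activates genes of cell cycle arrest, DNA repair, metabolism and cell death. Several of these targets, among them MDM2 itself, MDM4, PPM1D and the cyclin G genes, act back on p53. Many are also regulated by other factors, such as steroid receptors, FOXO proteins and NF-κB. RNA counts hold no measure of protein levels or of binding to DNA.

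To show what a p53 element looks like in members measured here, promoter windows of RefSeq on GRCh38.p14 were searched on both strands for the p53 consensus element of 20 bases without a spacer. Each window runs from 250 bases before to 50 bases after an annotated start. Windows were held for 26 of the 33 members. The 4 core C and G bases of the element had to match, and mismatches were counted at the other bases. An element with at most 2 mismatches stood in 5 of 40 member windows, against 0.285% of 35116 windows of all genes. The 5 windows belong to 4 members, AEN, DDB2, FAS and MDM2. With at most 3 mismatches FDXR and SESN1 were added, and 7 of 40 member windows and 1.12% of all windows matched. The mismatch limits were chosen after the windows were seen, and a match is a description of letters, not of binding. Each sequence is written 5′ to 3′ on the strand of the gene, with 5 flanking bases on each side in lower case and the element in capitals.
DDB2, chr11:47214969-47214988, plus strand, 1 mismatch: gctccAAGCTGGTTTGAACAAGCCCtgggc
AEN, chr15:88621306-88621325, plus strand, 2 mismatches: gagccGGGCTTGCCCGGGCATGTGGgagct
FAS, chr10:88991309-88991328, plus strand, 2 mismatches: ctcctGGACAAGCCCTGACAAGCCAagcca
MDM2, chr12:68808923-68808942, plus strand, 2 mismatches: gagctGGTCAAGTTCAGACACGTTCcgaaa
FDXR, chr17:74872996-74873015, minus strand, 3 mismatches: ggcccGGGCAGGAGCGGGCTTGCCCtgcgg
SESN1, chr6:109009018-109009037, minus strand, 3 mismatches: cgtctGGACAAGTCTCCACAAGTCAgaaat

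The DDB2 element covers the annotated start, and the first base of the others lies 21 (FDXR) to 122 (FAS) bases before it. Steroid receptor half-sites were searched in the same windows. AGAACA, on either strand, stood in 4 of 40 member windows (of FAS, FBXW7 and XPC) and in 14.8% of all windows. The longer palindromic steroid receptor element stood in no member's window and in 0.39% of all windows. Of the 10 members called with R5020 in siPRMT1 cells, 6 had a window, of which 1 (AEN) held a p53 element at either limit and 0 held AGAACA. TRIM22, GADD45A, TNFRSF10A and TNFRSF10B, also among the 10, had no window. The 6 genes are too few to set against the shares of all windows. Elements outside these windows were not searched.

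Total counts were 26783525 to 34120937 per library. PRMT1 averaged 7.08 ± 0.26 CPM in siPRMT1 R5020 cells, against 43.0 ± 6.9 CPM in siCT R5020 cells (SD, n = 3 each). It averaged 8.23 ± 0.27 CPM in siPRMT1 ethanol cells, against 37.5 ± 7.8 CPM in siCT ethanol cells (SD, n = 3 each). CPM is the count of a gene scaled to the size of its library (edgeR's cpm function) after TMM scaling of library sizes. PRMT1 fell with siPRMT1 in R5020 and in ethanol (log2 fold change -2.60 ± 0.18 and -2.19 ± 0.17 SE). All 9 luminal markers were detected. The summed level of 9 leukocyte, endothelial and fibroblast markers was 28.9 to 79.9 CPM, and 0.295 to 1.04 CPM without COL1A1. A pair of siCT libraries stood apart: mitochondrially encoded genes took 52.4% of the counts of siCT R5020 replicate 1 and 59.3% of those of siCT ethanol replicate 3. Their share was 31.3% to 38.3% elsewhere. The common biological coefficient of variation was 0.0753 in siPRMT1 R5020, 0.0464 in siPRMT1 ethanol, 0.212 in siCT R5020 and 0.325 in siCT ethanol. Among members, 8 were over 1.5-fold higher and 8 over 1.5-fold lower in siCT ethanol replicate 3 than in the mean of its other 2 libraries, against 26.4% and 24.7% of all genes. In siCT R5020 replicate 1 those numbers were 4 and 1, against 20.1% and 12.7% of all genes. The higher ones in both libraries were MDM4, FAS, TNFRSF10A and TNFRSF10B, and RRM2B was lower in both. The part of this make-up in the results was not tested, and results that rest on the pair are given with and without it.

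With R5020, the arrest genes GADD45A and GADD45B, the death genes TNFRSF10A and AEN, and TRIM22 and NINJ1 rose in siPRMT1 cells and in siCT cells, and PLK2, CCNG2 and ZMAT3 fell in both. TRIM22 moved most, 25.5-fold in siPRMT1 cells and 10.7-fold in siCT cells. In bulk RNA a change in the number of cells with a transcript and in the amount per cell cannot be told apart. MDM2, PPM1D, the DNA repair genes and the sestrins passed the test in neither R5020 comparison. A gene is called changed here when edgeR's quasi-likelihood test gives it an adjusted p under 0.05 (Benjamini-Hochberg over all 17727 genes). In siPRMT1 cells 7 members were called higher and 3 lower, 10 of 31 in all, where 15.4% of all genes tested were called (9.30% higher and 6.08% lower). In siCT cells 6 were called higher and 3 lower, 9 of 31, where 13% of all genes were called (7.59% higher and 5.43% lower). The median log2 fold change of the members was 0.03 in siPRMT1 cells and -0.08 in siCT cells, beside -0.0036 and -0.04 for all genes tested. The 2 R5020 comparisons share no library. Called in both arms in the same direction were 9 of 31 members, beside 9.77% of all genes tested. These were all 9 members called in siCT cells, where 13% of all genes were called at all. TNFRSF10B was the 1 member called in siPRMT1 cells alone. Without the pair, DDB2 (log2 -0.38) and TP53I3 (0.29) were added in siPRMT1 cells, and TNFRSF10B and TP53INP1 (0.44) in siCT cells, where 29.1% and 19.9% of all genes were called. Both fold changes had the same sign for 25 of 31 members, where 78.1% of all genes had the same sign. The libraries of the R5020 and ethanol groups did not overlap for 18 members in siPRMT1 cells and 10 in siCT cells, where 53.1% and 20.8% of all genes did not overlap.

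**Figure D1:**
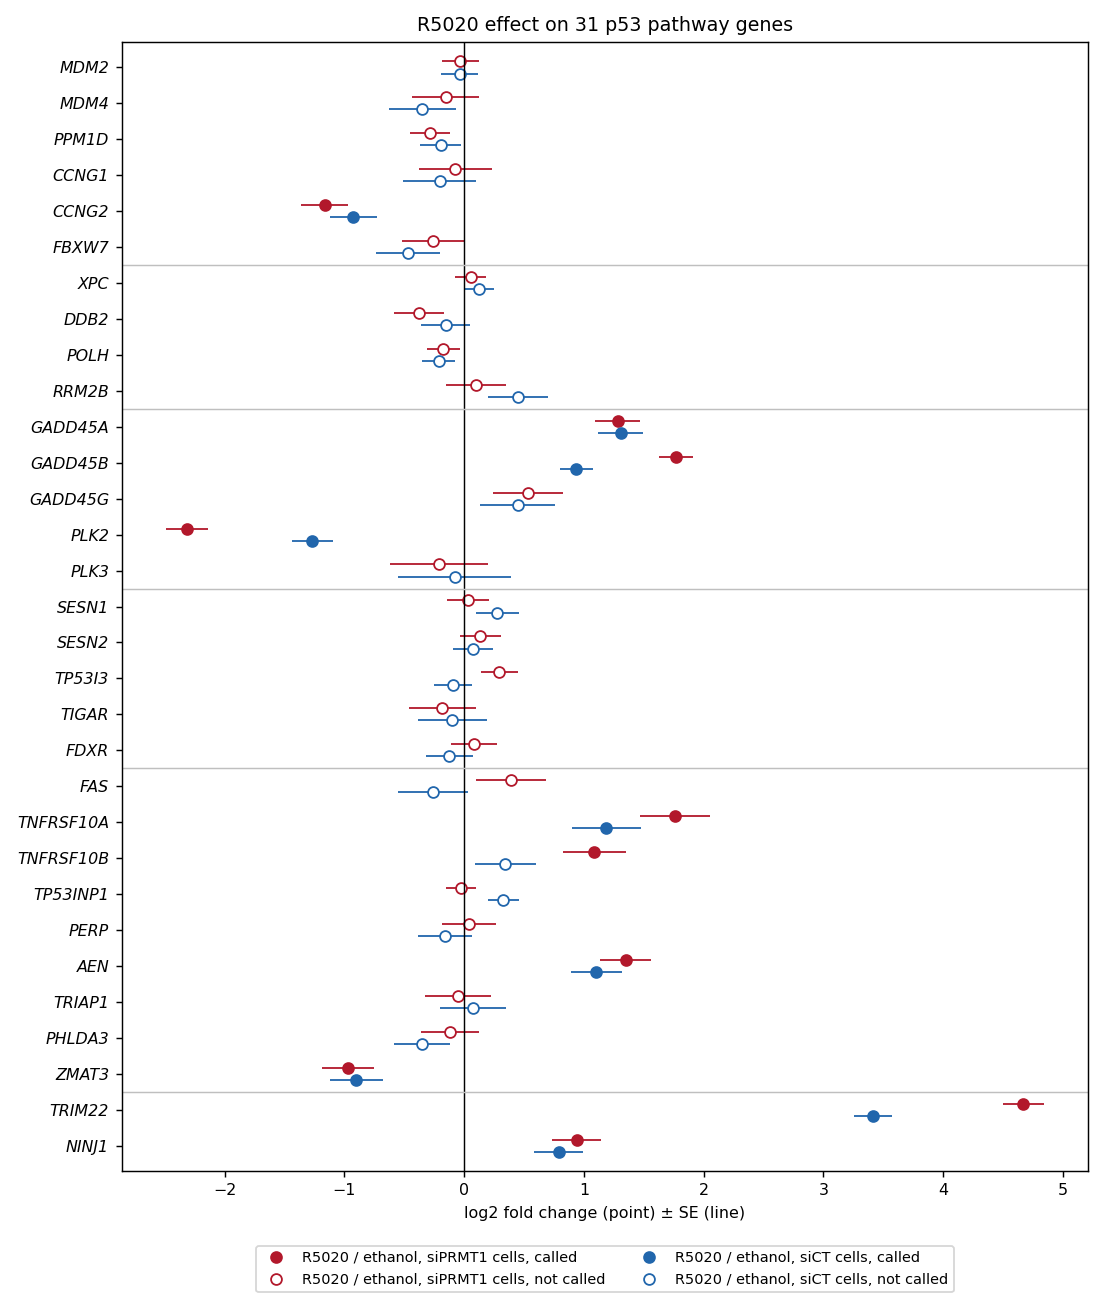
Log2 fold change of R5020 against ethanol (horizontal axis) for the 31 members tested, grouped by role down the page, in siPRMT1 cells and in siCT cells. Points are edgeR estimates, lines are ± 1 SE and filled points passed an adjusted p of 0.05: TRIM22 lies far to the right at 4.67 and 3.41, and PLK2 far to the left at -2.31 and -1.27.

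Among the arrest and stress genes, GADD45B encodes a stress sensor that binds upstream kinases of the p38 and JNK pathways and is a known target of NF-κB as well as p53. It stood at 24.8, 25.9 and 25.2 CPM in siPRMT1 R5020 libraries, against 7.40, 7.90 and 6.94 CPM in siPRMT1 ethanol libraries. In siCT cells it stood at 29.6, 30.2 and 27.5 CPM with R5020, against 17.3, 12.8 and 15.5 CPM with ethanol. The R5020 libraries were higher than the ethanol libraries without overlap in both siRNA arms. GADD45B rose 3.41-fold in siPRMT1 cells (log2 1.77 ± 0.14 SE, adjusted p = 1.59e-06, edgeR) and 1.91-fold in siCT cells (log2 0.94 ± 0.14 SE, adjusted p = 0.000363, edgeR).

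GADD45A, a sensor of DNA damage and a classical p53 target, had 5.56, 6.23 and 5.86 CPM in siPRMT1 R5020 libraries, against 2.27, 2.61 and 2.37 CPM in siPRMT1 ethanol libraries. It had 5.53, 7.28 and 7.93 CPM in siCT R5020 libraries, against 2.89, 3.22 and 2.19 CPM in siCT ethanol libraries. The groups did not overlap in either arm. GADD45A rose 2.43-fold in siPRMT1 cells (adjusted p = 0.000309) and 2.48-fold in siCT cells (adjusted p = 0.000316, edgeR for both). The third family member, GADD45G, was scarce, at 0.328 to 1.04 CPM over all libraries from 6 to 33 counts, and was called in no comparison.

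PLK2, a polo-like kinase that p53 induces and that acts at centriole duplication, moved the other way. It had 35.6, 36.3 and 34.6 CPM in siPRMT1 R5020 libraries, against 178, 169 and 183 CPM in siPRMT1 ethanol libraries. In siCT cells it had 91.4, 59.6 and 66.9 CPM with R5020, against 148, 184 and 193 CPM with ethanol. Every R5020 library lay under every ethanol library of its arm. PLK2 fell 4.97-fold in siPRMT1 cells (log2 -2.31 ± 0.18 SE, adjusted p = 1.17e-06, edgeR) and 2.41-fold in siCT cells (log2 -1.27 ± 0.17 SE, adjusted p = 0.000196, edgeR). Its relative PLK3 had 6 to 16 counts in a library and was called in no comparison.

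The death receptors TNFRSF10A and TNFRSF10B bind the ligand TRAIL and signal to caspases. TNFRSF10A stood at 8.04, 9.00 and 9.29 CPM in siPRMT1 R5020 libraries, against 2.32, 3.03 and 2.42 CPM in siPRMT1 ethanol libraries. It stood at 11.1, 6.12 and 7.12 CPM in siCT R5020 libraries, against 3.08, 2.33 and 5.47 CPM in siCT ethanol libraries. The groups did not overlap, and the highest value of each siCT group was that of a library of the pair that stood apart. TNFRSF10A rose 3.38-fold in siPRMT1 cells (adjusted p = 0.000851, edgeR) and 2.28-fold in siCT cells (log2 1.19 ± 0.29 SE, adjusted p = 0.0144, edgeR), and without the pair its log2 fold change in siCT cells was 1.28 (adjusted p = 0.000334, edgeR). A fit on only the siCT groups ended the siCT call (adjusted p = 0.137, edgeR).

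TNFRSF10B had 53.3, 54.3 and 52.6 CPM in siPRMT1 R5020 libraries, against 25.6, 24.5 and 25.2 CPM in siPRMT1 ethanol libraries. In siCT cells it had 78.8, 48.6 and 49.8 CPM with R5020, against 35.7, 33.5 and 70.6 CPM with ethanol. The siPRMT1 groups were well apart, whereas in siCT cells the ethanol library of the pair lay above 2 of the 3 R5020 libraries. It rose 2.12-fold in siPRMT1 cells (adjusted p = 0.0112, edgeR) and was not called in siCT cells (log2 0.34 ± 0.26 SE, adjusted p = 0.472, edgeR). Without the pair it was called in siCT cells too (log2 0.50, adjusted p = 0.00145, edgeR). FAS, the third death receptor among the members, was not called with R5020 in either arm. It had 28.5, 33.3 and 29.6 CPM in siPRMT1 R5020 libraries and 22.7, 21.8 and 25.2 CPM in siPRMT1 ethanol libraries (log2 0.39, adjusted p = 0.472, edgeR). In siCT cells its log2 fold change had the other sign, at -0.26 (adjusted p = 0.661, edgeR) and -0.20 without the pair.

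AEN, a nuclease that p53 induces in apoptosis and one of the members with a p53 element in its promoter window, had 7.37, 6.85 and 6.62 CPM in siPRMT1 R5020 libraries, against 2.57, 2.71 and 2.88 CPM in siPRMT1 ethanol libraries. It had 8.19, 7.94 and 7.93 CPM in siCT R5020 libraries, against 3.90, 2.42 and 5.03 CPM in siCT ethanol libraries. Again the groups did not overlap. AEN rose 2.55-fold in siPRMT1 cells (adjusted p = 0.000592) and 2.15-fold in siCT cells (adjusted p = 0.00303, edgeR for both), and a fit on only the siCT groups ended the siCT call (adjusted p = 0.0713, edgeR). ZMAT3, an RNA-binding zinc finger protein induced by p53, had 12.2, 15.5 and 13.6 CPM in siPRMT1 R5020 libraries and 25.7, 26.9 and 28.3 CPM in siPRMT1 ethanol libraries. Its siCT values were 14.1, 18.3 and 20.1 CPM with R5020 and 30.2, 45.1 and 22.6 CPM with ethanol. ZMAT3 fell 1.96-fold in siPRMT1 cells and 1.86-fold in siCT cells (adjusted p = 0.00804 and 0.0143, edgeR), again with no overlap in either arm. Library totals alone ended the ZMAT3 call in siPRMT1 cells (adjusted p = 0.0776, edgeR), and that scaling and a fit on only the siCT groups each ended it in siCT cells (adjusted p up to 0.164, edgeR).

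Of the 6 feedback genes, CCNG2 was the 1 called with R5020. CCNG2 encodes cyclin G2, an atypical cyclin linked to arrest and also a FOXO target. It had 57.8, 70.8 and 61.9 CPM in siPRMT1 R5020 libraries, against 142, 137 and 148 CPM in siPRMT1 ethanol libraries, and 53.3, 56.9 and 67.7 CPM in siCT R5020 libraries, against 83.3, 151 and 104 CPM in siCT ethanol libraries. The R5020 values of both arms lay in 1 range, below all ethanol values. CCNG2 fell 2.24-fold in siPRMT1 cells (adjusted p = 0.00103, edgeR) and 1.90-fold in siCT cells (adjusted p = 0.00609, edgeR). The siCT call was ended by library totals alone and by a fit on only the siCT groups (adjusted p up to 0.101, edgeR). MDM2, the main negative regulator of p53, did not pass in either arm, with log2 fold changes of -0.03 ± 0.15 and -0.04 ± 0.15 SE.

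TRIM22, an antiviral ubiquitin ligase induced by interferon and by p53, had 33.6, 34.4 and 37.0 CPM in siPRMT1 R5020 libraries, against 1.53, 1.12 and 1.47 CPM in siPRMT1 ethanol libraries. In siCT cells it had 60.9, 49.4 and 51.5 CPM with R5020, against 4.66, 5.43 and 5.09 CPM with ethanol. These groups were the farthest apart of any member. The log2 fold change was 4.67 ± 0.17 SE in siPRMT1 cells (adjusted p = 3.17e-09, edgeR) and 3.41 ± 0.16 SE in siCT cells (adjusted p = 2.48e-08, edgeR). NINJ1, an adhesion protein that ruptures the plasma membrane in lytic death, had 86.0, 66.6 and 69.7 CPM in siPRMT1 R5020 libraries, against 38.1, 39.1 and 38.8 CPM in siPRMT1 ethanol libraries. Its siCT values were 89.2, 119 and 106 CPM with R5020, against 80.9, 44.5 and 56.4 CPM with ethanol. NINJ1 rose 1.92-fold in siPRMT1 cells (adjusted p = 0.00577, edgeR) and 1.73-fold in siCT cells (adjusted p = 0.0188, edgeR), but the siCT call was lost when siCT R5020 replicate 2 or replicate 3 was left out, with an adjusted p of up to 0.184 over all alternatives. Library totals alone ended the call in siPRMT1 cells (adjusted p = 0.163, edgeR).

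**Figure D2:**
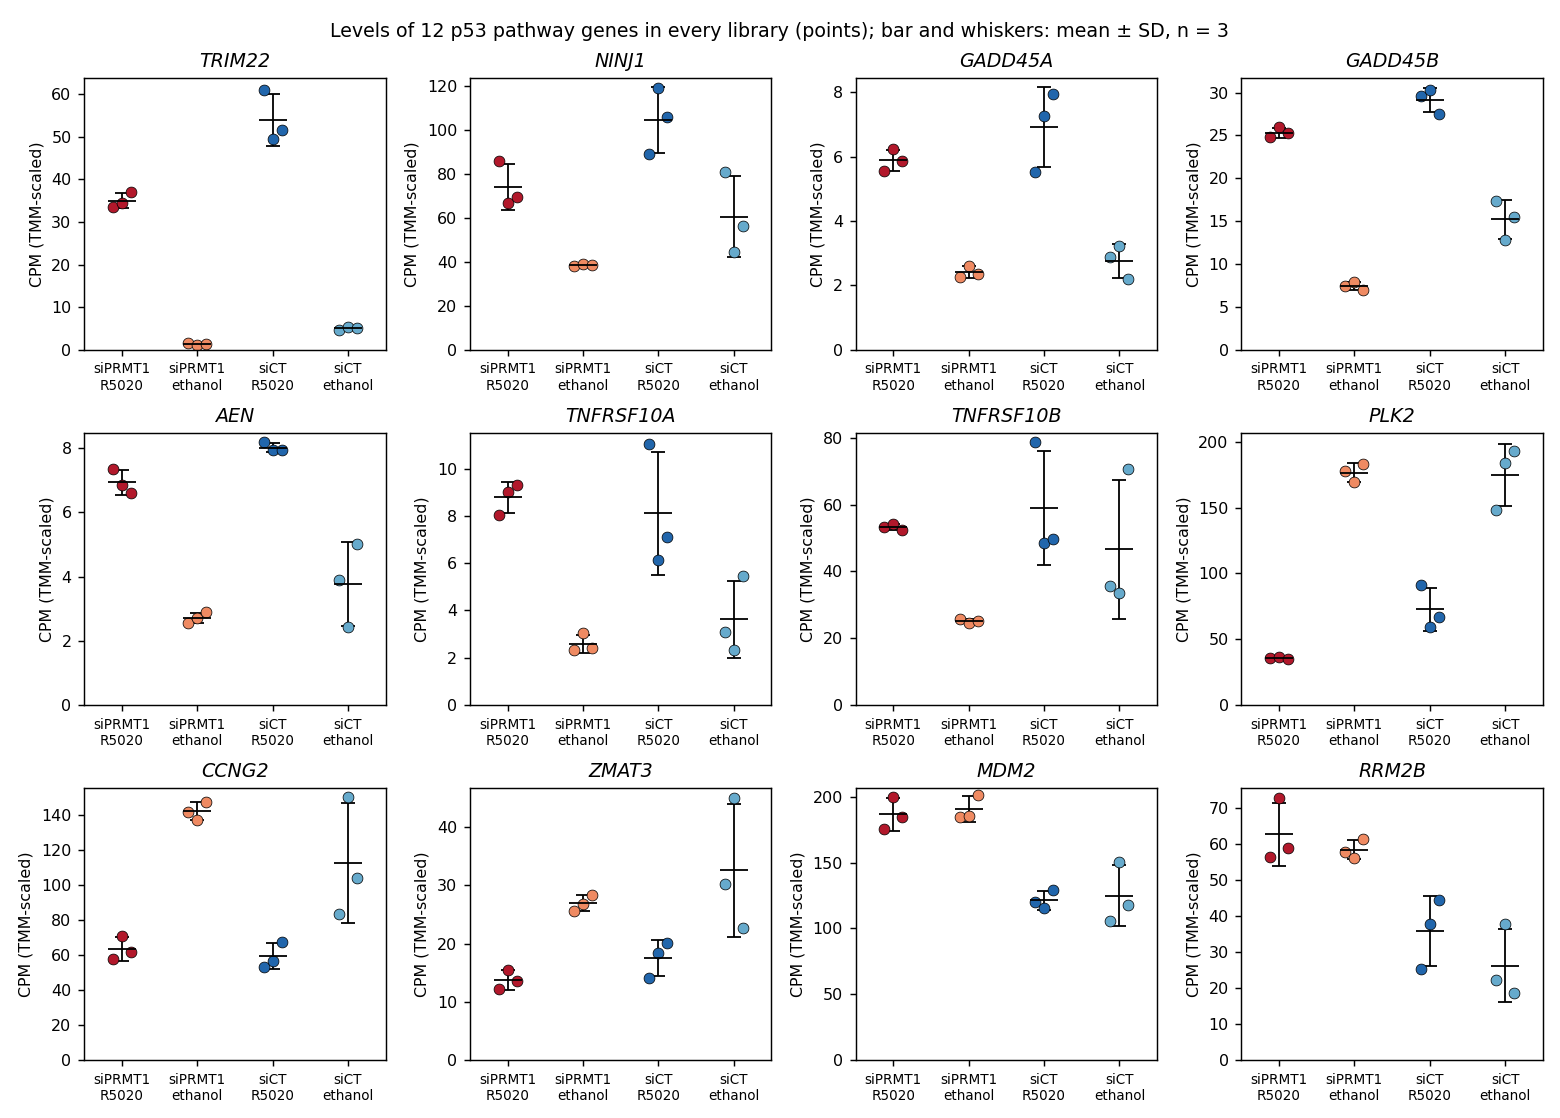
CPM (vertical axes, linear and starting at 0) of 12 members in every library, 1 panel a gene, with siPRMT1 R5020, siPRMT1 ethanol, siCT R5020 and siCT ethanol from left to right. Points are libraries, and bars with whiskers are means ± SD (n = 3). TRIM22 is at 1.12 to 5.43 CPM in all 6 ethanol libraries and at 33.6 to 60.9 CPM in all 6 R5020 libraries.

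With siPRMT1, each role had members called in ethanol, where 32.8% of all genes were called. In R5020, where 25.7% of all genes were called, 2 roles had 0 calls. These were the 5 sestrin, redox and metabolism genes and the 9 cell death and survival genes tested. MDM2, XPC, RRM2B and TRIM22 were called with siPRMT1 both in R5020 and in ethanol: MDM2 and RRM2B were higher, and XPC and TRIM22 were lower. These are 4 of 31 members, where 20.5% of all genes were called in both in the same direction. PLK2 and DDB2 were lower with siPRMT1 in R5020. In ethanol GADD45B, TP53I3, TNFRSF10B, PHLDA3 and NINJ1 were lower, and SESN1, TIGAR and TP53INP1 were higher. In R5020 2 members were called higher and 4 lower, 6 of 31, where 25.7% of all genes were called (11.5% higher and 14.2% lower). In ethanol 5 were called higher and 7 lower, 12 of 31, where 32.8% of all genes were called (13.6% higher and 19.2% lower). The median log2 fold change of the members was 0.09 in R5020 and -0.12 in ethanol, beside -0.03 and -0.07 for all genes. The shares of members called, 19.4% in R5020 and 38.7% in ethanol, are given as descriptions of the list. The siPRMT1 and siCT libraries did not overlap for 18 members in R5020 and 12 in ethanol, where 51.5% and 44.7% of all genes did not overlap. Without that pair, 17 members were called in each siPRMT1 comparison, where 38.9% of all genes were called in R5020 and 44.5% in ethanol. Scaling by library totals alone kept the calls of PLK2 in R5020 and of TP53INP1, GADD45B, TNFRSF10B and TRIM22 in ethanol, and ended the other 5 and 8. The fit without the pair added members in R5020 that are not described below. These were GADD45A (log2 -0.36), PHLDA3 (-0.61), ZMAT3 (-0.47) and NINJ1 (-0.59), lower, and FAS (0.45), TNFRSF10A (0.42) and PERP (0.29), higher. In ethanol the same fit added ZMAT3 as lower (log2 -0.47) and PLK3 as higher (1.09).

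MDM2 had 176, 200 and 184 CPM in siPRMT1 R5020 libraries, against 120, 115 and 129 CPM in siCT R5020 libraries. It had 185, 186 and 202 CPM in siPRMT1 ethanol libraries, against 106, 150 and 118 CPM in siCT ethanol libraries. All 6 siPRMT1 libraries lay above all 6 siCT libraries. MDM2 rose 1.54-fold in R5020 (log2 0.62 ± 0.15 SE, adjusted p = 0.0118, edgeR) and 1.53-fold in ethanol (log2 0.61 ± 0.15 SE, adjusted p = 0.00978, edgeR). Leaving out siPRMT1 R5020 replicate 2, or scaling by library totals alone, ended the call in R5020 (adjusted p up to 0.13, edgeR), with log2 values of 0.57 to 0.67 over 20 alternatives. Library totals alone and a fit on only the ethanol groups ended it in ethanol (adjusted p up to 0.0672, edgeR), with log2 values of 0.51 to 0.79. MDM2 shares exon bases with other genes on both strands, among them the carboxypeptidase M gene on the other strand, over 1% of its exon bases. The other 5 feedback genes were not called. MDM4, which binds and restrains p53, had 96.6, 114 and 111 CPM in siPRMT1 R5020 libraries, against 111, 66.2 and 67.9 CPM in siCT R5020 libraries, and 116, 118 and 125 CPM in siPRMT1 ethanol libraries, against 67.8, 85.5 and 160 CPM in siCT ethanol libraries. The highest siCT value in each was that of the pair, and without the pair MDM4 was called higher in R5020 (log2 0.69, adjusted p = 0.000687, edgeR) and in ethanol (log2 0.65, adjusted p = 0.000814, edgeR). FBXW7, the substrate receptor of a ubiquitin ligase for cyclin E and MYC, was likewise called higher without the pair, in R5020 (log2 0.60, adjusted p = 0.0212, edgeR) and in ethanol (log2 0.73, adjusted p = 0.00627, edgeR).

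Among the DNA repair and nucleotide supply genes, XPC and DDB2 were called lower with siPRMT1, DDB2 in R5020 only, and RRM2B was called higher. XPC, which recognises damage at the start of nucleotide excision repair, had 21.7, 21.4 and 22.3 CPM in siPRMT1 R5020 libraries, against 30.2, 29.9 and 29.9 CPM in siCT R5020 libraries. It had 21.3, 21.5 and 20.3 CPM in siPRMT1 ethanol libraries, against 30.7, 23.7 and 28.4 CPM in siCT ethanol libraries. The groups did not overlap. XPC fell 1.38-fold in R5020 (adjusted p = 0.0182, edgeR) and 1.31-fold in ethanol (adjusted p = 0.0299, edgeR). These calls were among the least stable: the R5020 call was lost when any siPRMT1 R5020 library or siCT R5020 replicate 2 was left out, and the ethanol call held in 9 of 20 alternatives. It was lost in ethanol when any siPRMT1 ethanol library, siPRMT1 R5020 replicate 1 or 3, or siCT ethanol replicate 1 or 3 was left out, while the log2 values stayed between -0.50 and -0.20. XPC shares 23.8% of its exon bases with 1 untested gene on the other strand, and the strand setting of the counting is not given in the sources used here.

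DDB2, which works with XPC on UV lesions and has the closest match to the p53 element among the members' windows, had 11.2, 9.00 and 9.48 CPM in siPRMT1 R5020 libraries, against 15.2, 16.1 and 16.1 CPM in siCT R5020 libraries. DDB2 fell 1.59-fold with siPRMT1 in R5020 (log2 -0.67 ± 0.21 SE, adjusted p = 0.0299, edgeR), without overlap. In ethanol it had 13.6, 12.6 and 12.4 CPM in siPRMT1 libraries and 23.1, 17.8 and 11.4 CPM in siCT libraries, which overlap (adjusted p = 0.106, edgeR). The call in R5020 was lost when siPRMT1 R5020 replicate 2 or 3 or any siCT R5020 library was left out, and without the pair DDB2 was called lower in ethanol too (log2 -0.66, adjusted p = 0.00197, edgeR). POLH, a polymerase that copies past UV lesions, was called in no comparison and stood at 13.2 to 19.4 CPM.

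RRM2B, the p53-induced subunit of ribonucleotide reductase, had 56.3, 72.7 and 58.9 CPM in siPRMT1 R5020 libraries, against 25.2, 37.7 and 44.5 CPM in siCT R5020 libraries. It had 57.7, 56.2 and 61.4 CPM in siPRMT1 ethanol libraries, against 22.3, 37.7 and 18.5 CPM in siCT ethanol libraries. All siPRMT1 libraries lay above all siCT libraries. RRM2B rose 1.75-fold in R5020 (log2 0.81 ± 0.25 SE, adjusted p = 0.032, edgeR) and 2.23-fold in ethanol (log2 1.15 ± 0.25 SE, adjusted p = 0.0049, edgeR). The R5020 call was lost when any siPRMT1 R5020 library, or siCT R5020 replicate 1 or 2, was left out, and the log2 values without the pair were 0.62 in R5020 and 0.97 in ethanol, both called.

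**Figure D3:**
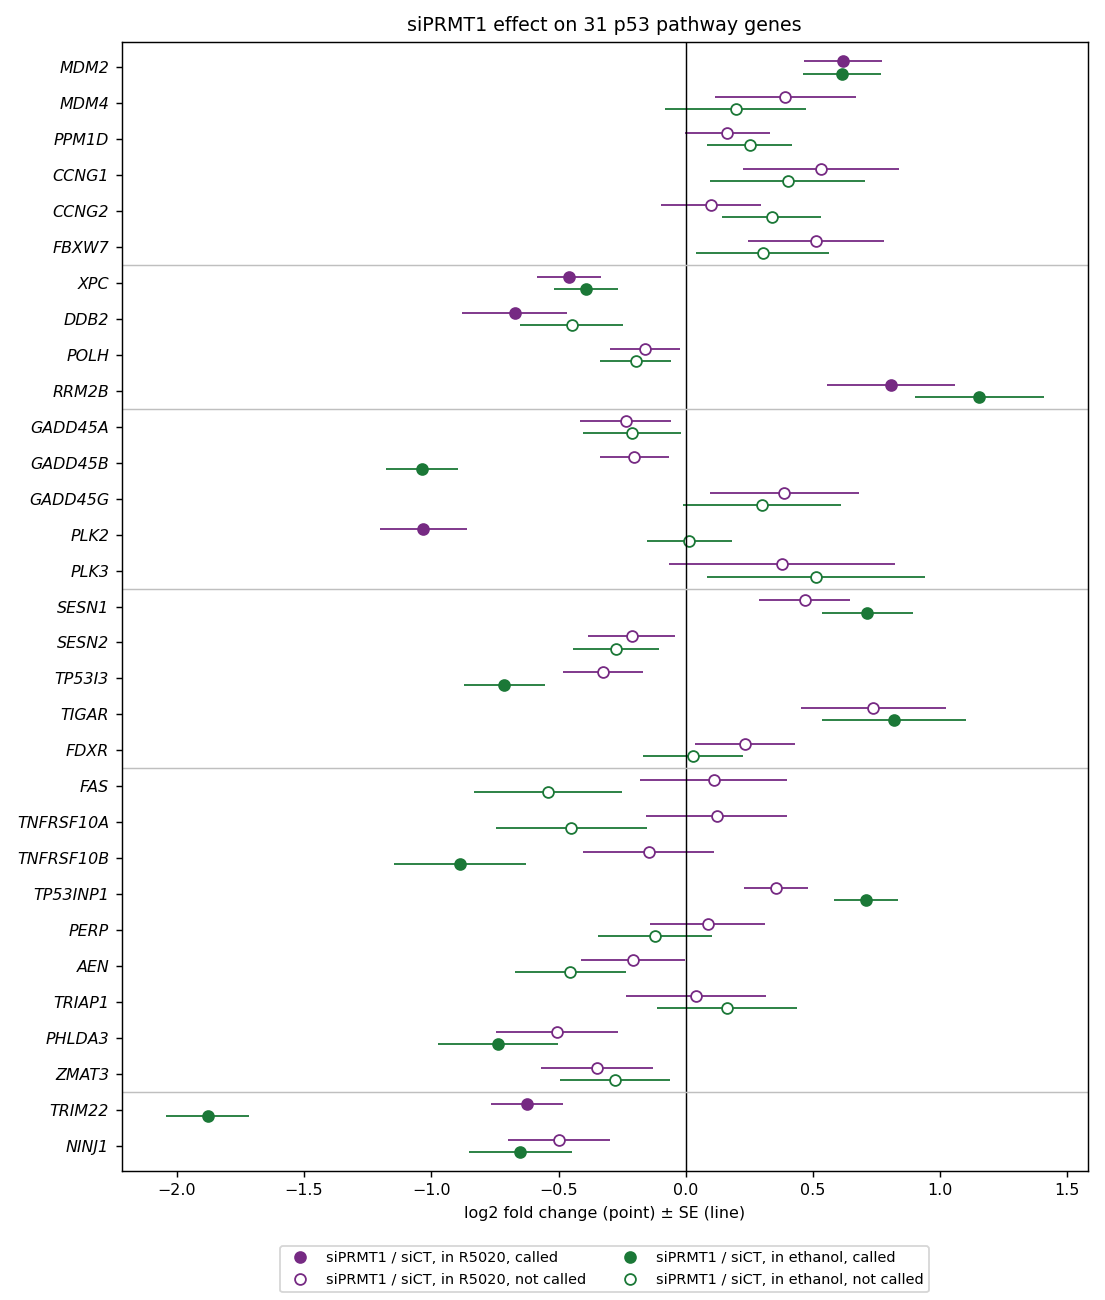
Log2 fold change of siPRMT1 against siCT (horizontal axis) for the 31 members tested, grouped by role down the page, in R5020 and in ethanol. Points are edgeR estimates, lines are ± 1 SE and filled points passed an adjusted p of 0.05: MDM2 lies at 0.62 and 0.61, TRIM22 at -0.62 and -1.88, and GADD45B and PLK2 are each called under 1 treatment only.

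The arrest genes GADD45B and PLK2 were each called with siPRMT1 under 1 treatment, GADD45B in ethanol and PLK2 in R5020. The difference between the treatments, tested below as an interaction, was called for neither by edgeR with all 12 libraries (adjusted p = 0.264 and 0.258). GADD45B, whose values are given above, fell 2.05-fold with siPRMT1 in ethanol (log2 -1.04 ± 0.14 SE, adjusted p = 0.000254, edgeR). It was not called in R5020 (log2 -0.20, adjusted p = 0.287, edgeR), though its siPRMT1 libraries lay below its siCT libraries there without overlap. PLK2 fell 2.04-fold with siPRMT1 in R5020 (log2 -1.03 ± 0.17 SE, adjusted p = 0.0013, edgeR). In ethanol its log2 fold change was 0.01 ± 0.17 SE (adjusted p = 0.956, edgeR). Both calls held in all 20 alternatives tried.

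Among the sestrin, redox and metabolism genes, SESN1, a stress-induced inhibitor of mTORC1 signalling, had 4.97, 4.87 and 5.93 CPM in siPRMT1 ethanol libraries, against 2.92, 3.57 and 3.12 CPM in siCT ethanol libraries. SESN1 rose 1.64-fold in ethanol (log2 0.71 ± 0.18 SE, adjusted p = 0.00982, edgeR), a call lost when siPRMT1 ethanol replicate 3 was left out. In R5020 the siPRMT1 libraries had 4.98, 5.76 and 5.39 CPM and the siCT libraries 3.39, 3.50 and 4.75 CPM (log2 0.47, adjusted p = 0.0687, edgeR). TP53I3, a quinone oxidoreductase that p53 induces, moved down: it had 49.7, 48.5 and 44.0 CPM in siPRMT1 ethanol libraries, against 91.1, 80.7 and 61.0 CPM in siCT ethanol libraries. TP53I3 fell 1.64-fold in ethanol (adjusted p = 0.00518, edgeR). In R5020 it had 62.2, 55.5 and 56.6 CPM in siPRMT1 libraries and 64.5, 76.2 and 77.7 CPM in siCT libraries, and was called lower there without the pair (log2 -0.39, adjusted p = 0.00617, edgeR).

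TIGAR, a phosphatase that lowers glycolytic flux, had 10.6, 9.71 and 9.55 CPM in siPRMT1 ethanol libraries, against 4.44, 9.06 and 3.23 CPM in siCT ethanol libraries. TIGAR was called higher in ethanol (log2 0.82 ± 0.28 SE, adjusted p = 0.0412, edgeR), but the call held in only 8 of 20 alternatives. It was lost without the pair (log2 0.58, adjusted p = 0.0545, edgeR), when any siPRMT1 library was left out, and when siCT R5020 replicate 2 or siCT ethanol replicate 1 or 3 was left out. TIGAR shares 42.6% of its exon bases with an untested gene on the same strand. SESN2 and FDXR, the mitochondrial ferredoxin reductase, were called in no comparison, at 11.4 to 18.9 CPM and 2.45 to 4.04 CPM. SESN3 had 0 counts in all 12 libraries, which allows a level of up to 0.0798 to 0.164 CPM at a floor of 3 counts per library if its reads could be counted, which was not tested.

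Of the 9 cell death and survival members tested, 3 were called with siPRMT1 in ethanol and 0 in R5020, where 32.8% and 25.7% of all genes were called (edgeR). Over all 31 members, 10 had an unadjusted p under 0.05 in R5020 (edgeR), beside 6968 of all 17727 genes. Without the pair, 5 of the 9 were called in ethanol and 6 in R5020, where 44.5% and 38.9% of all genes were called. TP53INP1, which promotes p53 phosphorylation and autophagy, had 76.8, 79.4 and 84.7 CPM in siPRMT1 ethanol libraries, against 48.9, 45.3 and 53.2 CPM in siCT ethanol libraries. The groups were well apart, and TP53INP1 rose 1.63-fold (log2 0.71 ± 0.13 SE, adjusted p = 0.00163, edgeR). In R5020 it had 82.5, 79.4 and 74.8 CPM in siPRMT1 libraries and 56.4, 65.3 and 63.3 CPM in siCT libraries (log2 0.36 ± 0.13 SE, adjusted p = 0.0551, edgeR). It was called there without the pair (log2 0.31, adjusted p = 0.0137, edgeR). TNFRSF10B fell 1.85-fold in ethanol (log2 -0.89 ± 0.26 SE, adjusted p = 0.0205, edgeR), from the ethanol values given above. The size rested on 1 library: without the pair the log2 fold change was -0.45 (adjusted p = 0.000941, edgeR), and the call was lost when any siPRMT1 ethanol library or siCT ethanol replicate 3 alone was left out.

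PHLDA3, an inhibitor of AKT membrane binding, had 4.26, 4.98 and 4.30 CPM in siPRMT1 ethanol libraries, against 10.7, 6.37 and 5.30 CPM in siCT ethanol libraries. PHLDA3 fell 1.67-fold in ethanol (log2 -0.74 ± 0.24 SE, adjusted p = 0.0296, edgeR), a call lost when any siPRMT1 ethanol library or siCT ethanol replicate 1 was left out. FAS, PERP, a desmosome protein of the apoptosis response, and TRIAP1, a small inhibitor of apoptosis, were called in no comparison. PERP had 87.1, 91.3 and 98.9 CPM in siPRMT1 ethanol libraries and 80.3, 78.2 and 143 CPM in siCT ethanol libraries, the 143 CPM being in the library of the pair. Its log2 fold change was -0.12 with the pair and 0.23 without it (adjusted p = 0.705 and 0.0496, edgeR), a turn of direction. FAS had 22.7, 21.8 and 25.2 CPM in siPRMT1 ethanol libraries and 19.9, 31.4 and 50.6 CPM in siCT ethanol libraries, and TRIAP1 had 21.4, 18.6 and 20.8 CPM against 20.1, 24.5 and 9.24 CPM in those groups. SPATA18, a mitochondrial quality control gene, had 0 counts in all 12 libraries, with the same limit.

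TRIM22 was the 1 member called in all 4 comparisons of R5020 and siPRMT1. From the values given above, it fell 3.68-fold with siPRMT1 in ethanol (log2 -1.88 ± 0.16 SE, adjusted p = 1.42e-05, edgeR) and 1.54-fold in R5020 (log2 -0.62 ± 0.14 SE, adjusted p = 0.00701, edgeR), with no overlap under either treatment. Its level in siPRMT1 R5020 cells was thus below that in siCT R5020 cells, while its fold over ethanol was larger in siPRMT1 cells. NINJ1 fell 1.57-fold with siPRMT1 in ethanol (adjusted p = 0.0264, edgeR) and was not called in R5020 (log2 -0.50, adjusted p = 0.0824, edgeR). The NINJ1 call in ethanol was lost when any siPRMT1 ethanol library or siCT ethanol replicate 1 was left out.

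Whether the R5020 effect differed between siPRMT1 and siCT cells was tested as an interaction, a log2 difference that is positive where the effect is higher in siPRMT1 cells. With all 12 libraries 0 of 31 members were called by edgeR, where 0.0790% of all genes (14 genes, 0.0451% higher and 0.0338% lower) were called. In the same test 720 of all 17727 genes had an unadjusted p under 0.05, among them 3 members. These were TRIM22 (log2 difference 1.26 ± 0.21 SE, adjusted p = 0.0643), PLK2 (-1.05 ± 0.24 SE, adjusted p = 0.258) and GADD45B (0.83 ± 0.19 SE, adjusted p = 0.264, edgeR for all). All 3 R5020 fold changes were estimated as larger in siPRMT1 cells than in siCT cells, though the differences were not called in this fit. TRIM22 and GADD45B averaged 1.37 and 7.41 CPM in siPRMT1 ethanol cells, against 5.06 and 15.2 CPM in siCT ethanol cells. With R5020 they averaged 35.0 and 25.3 CPM in siPRMT1 cells, against 54.0 and 29.1 CPM in siCT cells. Without the pair, edgeR called TRIM22 (1.35, adjusted p = 0.00838), PLK2 (-0.92, adjusted p = 0.0149) and TNFRSF10B (0.58, adjusted p = 0.0375), where 0.779% of all genes were called. With all libraries, DESeq2 called TRIM22 (1.24, adjusted p = 0.000399), PLK2 (-1.07, adjusted p = 0.00855) and GADD45B (0.81, adjusted p = 0.014), where 32 of all genes were called higher and 56 lower. Limma's voom with quality weights called the same 3 genes, where 30 of all genes were called higher and 35 lower. CCNG2, GADD45A, TNFRSF10A, AEN, ZMAT3 and NINJ1 were not called in the interaction in these fits: for GADD45A the log2 difference was -0.03 and for TNFRSF10A 0.57 ± 0.41 SE.

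**Figure D4:**
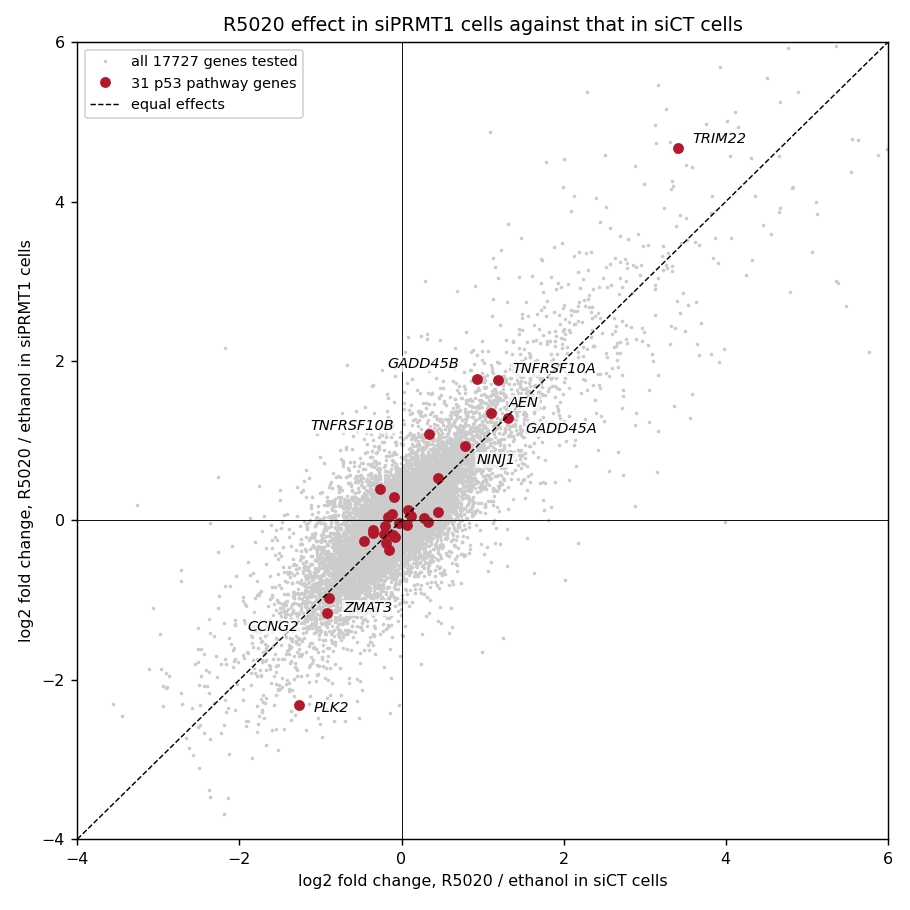
Log2 fold change of R5020 against ethanol in siPRMT1 cells (vertical axis) against that in siCT cells (horizontal axis) for the 31 members (red, with those called in either arm named) and all 17727 genes tested (grey, of which 29 lie outside the axes). TRIM22, GADD45B, TNFRSF10A and TNFRSF10B lie above the line of equal effects and PLK2 below it, while GADD45A lies close to it.

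Counted over R5020 and siPRMT1 comparisons, 12 of 31 members were called in 0 of 4, where 53.3% of all genes were called in 0. Each R5020 comparison shares 3 libraries with each siPRMT1 comparison. The other members were called in 1 comparison (6 members), 2 comparisons (9), 3 comparisons (GADD45B, PLK2 and NINJ1) or all 4 (TRIM22). Of all genes, 16% were called in 1 comparison, 23.9% in 2, 4.12% in 3 and 2.67% in 4. The 12 were MDM4, PPM1D, CCNG1, FBXW7, POLH, GADD45G, PLK3, SESN2, FDXR, FAS, PERP and TRIAP1. CCNG1, cyclin G1, which recruits a phosphatase to MDM2, showed the spread of the siCT libraries: it had 123, 108 and 121 CPM in siPRMT1 ethanol libraries and 75.1, 144 and 47.1 CPM in siCT ethanol libraries. PPM1D, the WIP1 phosphatase that dephosphorylates p53, had 15.3, 16.8 and 16.9 CPM in siPRMT1 R5020 libraries and 19.7, 19.4 and 20.6 CPM in siPRMT1 ethanol libraries, which do not overlap but did not pass the test (log2 -0.28, adjusted p = 0.339, edgeR).

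The genes upstream of the members were read from a list of 26 p53 family and regulator genes, all tested. R5020 called 4 of them higher and 2 lower in each siRNA arm, and siPRMT1 called 4 higher and 4 lower in R5020 and 3 higher and 4 lower in ethanol. Of all genes, 15.4% were called with R5020 in siPRMT1 cells and 13% in siCT cells, and 25.7% were called with siPRMT1 in R5020 and 32.8% in ethanol. USP7, the deubiquitinase of MDM2 and p53, averaged 233 ± 9.7 CPM in siPRMT1 R5020 cells, 89.9 ± 2.9 in siPRMT1 ethanol, 143 ± 6.7 in siCT R5020 and 56.2 ± 3.5 in siCT ethanol (SD, n = 3). It rose with R5020 in siPRMT1 cells (log2 1.37 ± 0.13 SE, adjusted p = 6.37e-06) and in siCT cells (1.34 ± 0.13 SE, adjusted p = 9.14e-06), and with siPRMT1 in R5020 (0.71, adjusted p = 0.00192) and in ethanol (0.68, adjusted p = 0.00198, edgeR for all). The p53 relatives TP63 and TP73 fell with R5020: TP63 by log2 -2.07 in siPRMT1 cells and -2.44 in siCT cells, at under 2 CPM in each group, and TP73 by log2 -1.07 in siPRMT1 cells and -0.66 in siCT cells. TP73 also fell with siPRMT1 in R5020 and in ethanol (log2 -1.01 and -0.60). CDKN2A, whose ARF product restrains MDM2, fell with siPRMT1 in R5020 (log2 -1.28) and in ethanol (log2 -1.09, adjusted p = 0.000216, edgeR). TP53BP2, a p53-binding protein that favours death genes, rose with R5020 in siPRMT1 cells (log2 0.73) and in siCT cells (log2 0.80). SETD7, a lysine methyltransferase that acts on p53, rose with R5020 in siPRMT1 and siCT cells (log2 0.86 and 1.12) and with siPRMT1 in R5020 and in ethanol (log2 0.64 and 0.90).

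Of 45 further p53 targets, 44 were tested. R5020 called 7 higher and 3 lower in siPRMT1 cells and 4 higher and 4 lower in siCT cells. With siPRMT1, 7 were called higher and 9 lower in R5020, and 7 higher and 13 lower in ethanol. The shares called among all genes are those given for the regulators. PRDM1, a transcriptional repressor, averaged 13.3 ± 0.53 CPM in siPRMT1 R5020 cells against 0.929 ± 0.14 CPM in siPRMT1 ethanol cells (SD, n = 3; log2 3.84, adjusted p = 7.57e-08, edgeR), and rose in siCT cells as well (log2 3.44). ACER2, an alkaline ceramidase, rose with R5020 in both arms (log2 1.72 and 1.58), and so did TGFA, a ligand of EGFR (log2 1.23 in siPRMT1 cells and 1.62 in siCT cells). ACER2 also rose with siPRMT1 in R5020 and in ethanol (log2 0.81 and 0.66), TGFA in ethanol (0.49) and PRDM1 in R5020 (0.55). KITLG, the ligand of KIT, averaged 6.26 ± 0.43 CPM in siPRMT1 R5020, 35.8 ± 2.8 in siPRMT1 ethanol, 8.19 ± 0.80 in siCT R5020 and 14.6 ± 3.4 in siCT ethanol (SD, n = 3). It was the 1 gene of this list called in the interaction (log2 difference -1.68 ± 0.25 SE, adjusted p = 0.0249, edgeR). Lower with siPRMT1 were BTG2, an antiproliferative gene (log2 -1.59 in R5020 and -1.72 in ethanol), ORAI3, a calcium channel subunit (-1.99 and -2.18), and PLTP, a phospholipid transfer protein (-1.80 and -1.56). PANK1, a coenzyme A synthesis gene, was higher with siPRMT1 in R5020 (log2 0.92) and in ethanol (1.59), and fell with R5020 in siPRMT1 cells (-0.74). CDKN1A, the p21 cell cycle inhibitor, rose with R5020 in siPRMT1 cells (log2 1.16, adjusted p = 0.00167) and with siPRMT1 in R5020 (0.85, adjusted p = 0.0113, edgeR for both). BAX was called lower with siPRMT1 in ethanol (log2 -0.58), and BBC3 in R5020 and in ethanol (-0.71 and -0.95), at under 2 CPM in each library.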

How the data were processed

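The authors deposited raw read counts per gene symbol for each of 12 libraries, and these counts were used as deposited. The submitters' processing notes list build hg19, DESeq2, HTSeq 0.9.1 and Bowtie2 2.3.2.2. Strand setting and annotation release were not given in the sources used here. Genes were filtered with filterByExpr, scaled by TMM and tested with edgeR 4.0.16 in R 4.3.3 (quasi-likelihood test, 1 mean per group over all 12 libraries, Benjamini-Hochberg adjustment over 17727 genes, threshold 0.05). P-values are two-sided. Alternatives used limma 3.58.1 and DESeq2 1.42.0. Floors of 3 counts cover counting error only. No libraries within a group agreed within sampling noise. The members, the lists and the alternatives were chosen with earlier results of these data known. Named genes are all members, PRMT1, CDKN1A, BAX, BBC3, BTG2 and, from each further list, up to 3 called genes with the smallest adjusted p per comparison. Exon overlaps were taken from GENCODE 29 on GRCh38 and used for gene names and shares only. The authors' own table of comparisons was not used. Values of 1 gene of the regulator list are not reported here.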

Additional observations from a re-analysis of the deposited data

How the results depend on the processing

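Of 20 alternatives, 12 each left out 1 library. All 20 kept the R5020 calls of GADD45A, GADD45B, PLK2 and TRIM22 in both arms, of PLK2 with siPRMT1 in R5020, and of GADD45B, TP53INP1 and TRIM22 with siPRMT1 in ethanol. Counts of members called moved more, and the cause was not tested. Scaling by library totals alone shifted the median of all genes by -0.172 (log2) for R5020 in siPRMT1 cells and 0.182 for siPRMT1 in ethanol. It called 1 member lower for R5020 in siCT cells (3 in the main result), where 710 of all genes were called lower. For siPRMT1 in R5020 it called 0 higher and 1 lower (2 and 4), where all genes gave 744 and 1685. In ethanol it called 1 higher and 3 lower (5 and 7), where all genes gave 1325 and 1696. A fit on only the groups compared called 7 lower for R5020 in siPRMT1 cells (3), where all genes gave 3806 lower. In siCT cells it called 3 higher and 1 lower (6 and 3), where all genes gave 637 and 261. For siPRMT1 it called 6 higher in R5020 (2), and 3 higher and 3 lower in ethanol. All genes gave 2728 higher in R5020, and 1284 higher and 2040 lower in ethanol. Without siCT R5020 replicate 1 and siCT ethanol replicate 3, the pair that stood apart, 8 higher and 9 lower were called for siPRMT1 in R5020. All genes then gave 3463 and 3529. In ethanol 8 were called higher, where all genes gave 3628. The interaction called 2 higher and 1 lower (0 and 0), where all genes gave 55 and 85 calls, against 8 and 6. In that fit PERP turned to 0.23 with siPRMT1 in ethanol, against -0.12. Voom with quality weights called 5 lower for R5020 in siPRMT1 cells, where all genes gave 3986. For siPRMT1 in R5020 it called 13 higher and 10 lower, where all genes gave 4844 and 5022. In the interaction it called 2 higher and 1 lower, where all genes gave 30 and 35. DESeq2 called 5 higher for siPRMT1 in R5020, where all genes gave 2541. Its interaction calls were 2 higher and 1 lower, where all genes gave 32 and 56.

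With each library left out in turn, R5020 in siPRMT1 cells gave 7 to 7 members higher and 3 to 4 lower, and in siCT cells 5 to 8 higher and 3 to 4 lower. All genes gave 1168 to 2025 higher and 616 to 1795 lower in siPRMT1 cells, and 1022 to 1732 and 528 to 1360 in siCT cells. SiPRMT1 in R5020 gave 0 to 6 higher and 2 to 6 lower, both lowest without siPRMT1 R5020 replicate 2. All genes gave 1041 to 3150 higher and 1291 to 3618 lower there, also lowest without that library. SiPRMT1 in ethanol gave 3 to 8 higher and 3 to 9 lower, and the interaction 0 to 0 in each direction. All genes gave 1393 to 3462 higher and 2094 to 4365 lower in ethanol, and 0 to 10 and 0 to 23 in the interaction. Deviations of same-numbered libraries from their group means had r from -0.667 to 0.29, over 0.1 in 3 of 18 pairs. The lowest r involved siCT ethanol replicate 3, a library of the pair that stood apart. The labels do not say whether the numbers pair the libraries, and these correlations cannot settle it. A replicate block gave 7 higher and 3 lower for R5020 in siPRMT1 cells, 6 and 3 in siCT cells, 2 and 4 for siPRMT1 in R5020, 5 and 5 in ethanol and 0 and 0 in the interaction. In the same order, all genes gave 1427 and 851, 1160 and 730, 1706 and 2139, 2084 and 2852, and 0 and 0. Over all genes, main counts of 1648 higher and 1077 lower for R5020 in siPRMT1 cells became 4007 and 3806 with only the groups compared, and 1345 and 963 in siCT cells became 637 and 261. For siPRMT1 in R5020, 2046 and 2513 became 4844 and 5022 with voom. For siPRMT1 in ethanol, 2407 and 3399 became 1325 and 1696 with library totals alone. PLK3 and GADD45G, at 6 to 33 counts, and the siCT libraries' spread limit what could be detected.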

Other observations

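A list of 18 FOXO targets, of which 16 were tested and 3 (CCNG2, SESN1 and TP53INP1) are also p53 pathway members, was read beside the members. R5020 called 3 higher and 1 lower in siPRMT1 cells and 4 higher and 3 lower in siCT cells, and siPRMT1 called 2 higher and 2 lower in R5020 and 5 higher and 3 lower in ethanol. Of all genes, 15.4% and 13% were called with R5020 in siPRMT1 and siCT cells, and 25.7% and 32.8% with siPRMT1 in R5020 and in ethanol. KLF15, a regulator of metabolic genes, averaged 8.32 ± 0.59 CPM in siPRMT1 R5020 cells against 0.432 ± 0.076 CPM in siPRMT1 ethanol cells (SD, n = 3). It rose with R5020 in siPRMT1 cells (log2 4.25 ± 0.23 SE, adjusted p = 7.57e-08, edgeR) and in siCT cells (3.33 ± 0.24 SE, adjusted p = 7.22e-07, edgeR). PDK4, which inhibits pyruvate dehydrogenase, rose with R5020 in siPRMT1 cells (log2 2.95) and in siCT cells (3.12), and with siPRMT1 in R5020 (0.75) and in ethanol (0.92). BCL6, a transcriptional repressor, rose with R5020 in both arms (log2 1.18 and 1.12) and fell with siPRMT1 in R5020 and in ethanol (log2 -0.50 and -0.55). CITED2, a CBP-binding coregulator, fell with siPRMT1 in R5020 and in ethanol (log2 -0.98 and -0.85). KLF15 also rose with siPRMT1 in R5020 (log2 0.84).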
